A study of Vitis amurensis with 6 samples.

Results

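The genes described here are intronless, with 1 coding exon each. They were taken as every gene on chromosomes 1 to 19 whose entry in the deposited table lists a single exon, with genes on random or unplaced sequences left out, and they number 418 of 16645 genes. In all 418 the coding length equalled the span from start to end and was a multiple of 3, so the table gives each of them an uninterrupted coding sequence. The exons of the table carry no untranslated parts, so an intron inside an untranslated region would not be seen. The comparison genes are the 14838 genes of 2 or more exons on the same chromosomes, called genes with introns below.

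Expression was measured by RNA sequencing in Vitis amurensis (Amur grape) callus, a cultured mass of unorganised plant cells. Of the 6 libraries, 3 are labelled EV, with the genotype label Envelope, and 3 are labelled as overexpressing VaWRKY12, a transcription factor of the WRKY family. Both groups were transformed from petiole segments, selected on kanamycin at 20 mg per litre, kept in the dark at 25 °C on solid B5 medium, and held at 4 °C for 24 hours once 15 days had passed since transfer to new medium. The series asked which genes change with VaWRKY12 in the cold, and every library was cold-treated. The sources used here do not state the promoter of the transgene or whether libraries of a group came from separate callus lines. The p-values therefore cover only variation among these 6 libraries, and that may be technical. Gene identifiers come without names, so neither the tissue label nor the level of VaWRKY12 could be checked against known genes, and the families of the genes below are not known here.

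Most plant genes are split by introns that are spliced out of the transcript before translation. Genes without introns arise when a spliced transcript is copied back into the genome, when an intron is lost, or when an intronless gene is duplicated, and plant families known for many such members include histones, SAUR auxin-response genes, pentatricopeptide repeat proteins and DREB cold-response factors. Introns near the start of a transcript are known to raise expression of many plant genes, and close copies of one gene share sequence, so that short reads can match several of them. WRKY factors bind short promoter elements called W-boxes in defence and stress responses.

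Read totals ran from 8795632 to 14966502 per library. Between 0.864% and 0.913% of the reads in each library fell on intronless genes, although they make up 2.51% of the table. Their log2 CPM values, that is counts scaled to library size (CPM) on the log2 scale, correlated across genes at 0.966 to 0.975 within EV and 0.9498 to 0.971 within VaWRKY12, where replicate 3 gave both lower values, 0.9513 and 0.9498. The same measure in genes with introns was 0.980 to 0.986 and 0.973 to 0.987. Genes are not independent replicates, and these values are a description.

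Intronless genes had shorter coding sequences than genes with introns. Their median coding length was 753 bases (quartiles 435 and 1507), against 1098 bases (660 and 1695), and 39.5% against 21.6% were under 600 bases. Just outside the limit of 1 exon, the 1482 genes of exactly 2 exons were shorter still, with a median of 459 bases. The shortest intronless gene was GSVIVT01025058001, of 99 bases, at chr6:4881715-4881813 (plus strand). It had read counts of 12, 15 and 14 under EV against 30, 8 and 13 under VaWRKY12. The longest was GSVIVT01012932001, of 6288 bases, at chr17:13766755-13773042 (plus strand), which is described with the falls.

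Intronless genes were expressed at a lower level per length. Levels are given in RPKM, reads scaled to coding length and to library size, averaged over 6 libraries. Their median was 7.30 RPKM (10th and 90th percentiles 1.23 and 71.8), against 24.4 RPKM (2.87 and 144) in genes with introns and 19.7 RPKM in genes of exactly 2 exons. Levels under 5 RPKM were found in 168 of the 418 (40.2%), against 16.2% of genes with introns. At the other end, 31 (7.42%) lay above 100 RPKM, against 15.4%.

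The gap in level was present in each library and was widest, as a ratio of medians, among the longest genes. Per library, the median of the intronless genes was 7.64, 7.26 and 7.21 RPKM in EV and 7.63, 6.74 and 5.91 RPKM in VaWRKY12, and that of genes with introns 23.6, 24.3 and 23.9 and 25.3, 24.6 and 23.2 RPKM. The 2 ranges over libraries did not overlap. Under 300 bases the medians were 13.6 RPKM for 60 intronless genes and 36.0 RPKM for 865 genes with introns. From 300 to under 600 bases they were 17.997 and 43.5 RPKM. At 1800 bases and over, 74 intronless genes had a median of 1.75 RPKM, against 17.6 RPKM. Across the 418 genes, coding length and RPKM had a Spearman's rho of -0.52, against -0.23 across genes with introns. This is a correlation across genes whose RPKM is divided by the same length, and the rho between length and CPM was 0.02 and 0.22. The table holds only genes above a low level (each of the 16645 reached 1 CPM in 2 libraries or more), so longer genes could enter it at a lower RPKM, and the part of this limit in the relation was not tested.

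**Figure D1:**
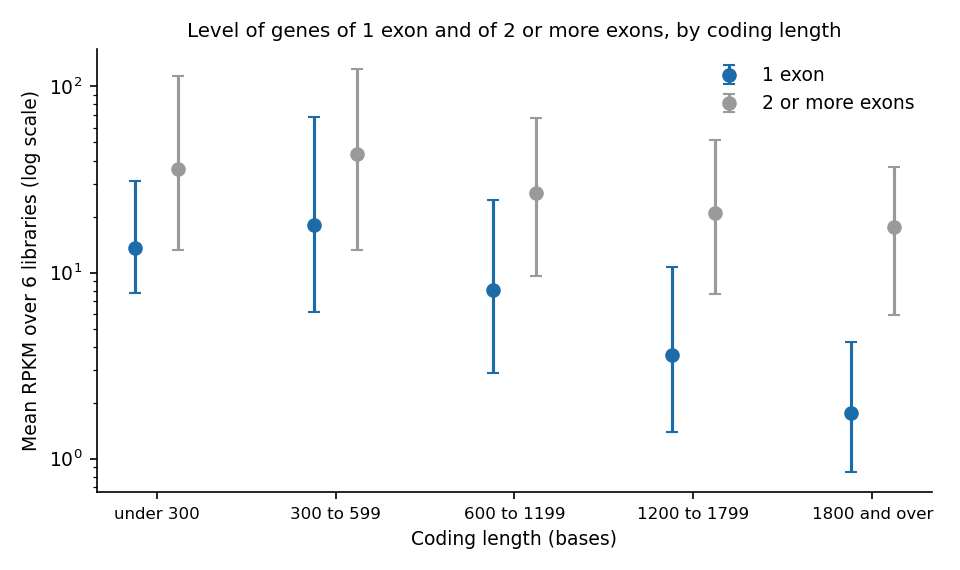
Mean RPKM over 6 libraries (log scale) in 5 classes of coding length for intronless genes (blue) and genes with introns (grey), with points at the median and bars from the lower to the upper quartile. The blue medians lie below the grey in each class, at 13.6 against 36.0 RPKM under 300 bases and 1.75 against 17.6 RPKM at 1800 bases and over.

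A smaller share of intronless genes than of genes with introns had counts that were not whole numbers, given here with no test. Such a count, taken as one more than 1e-06 from a whole number, occurred in any library in 67 of the 418 (16.03%, 95% exact binomial interval 12.6% to 19.9%), against 38.3% of genes with introns. The interval treats genes as independent draws and covers no other variation. The 418 are all the genes under the rule, and close ones may share reads. The share rose with exon number, from 20.9% at 2 exons and 23.7% at 3 to 42.4% at 6 to 10 and 58.5% at over 10. Expression level rises over the same classes, so genes with introns were weighted to the level and coding length of the 400 intronless genes that were tested (50 classes, 10 of level by 5 of length). The share was then 29.3%. In a coarser weighting (15 classes) it was 19.5% for 2 exons, 22.02% for 3, 25.8% for 4 and 32.3% for 5. It was 34.5% for 6 to 10 exons and 67.9% for over 10. The weighting matched the last class less well. Its weighted median was 3.67 RPKM, against 7.28 to 9.68 RPKM in the other classes, and its shortest gene had 639 bases. A fraction of 0.5 made up 54.5% of the fractional values of intronless genes and 56.8% of those of genes with introns. None of the 418 overlapped an exon of another gene in the table, and only 6 of the 14838 genes with introns did. The sources used here do not state how counting gave fractions. Such genes may share reads with other gene models.

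**Figure D2:**
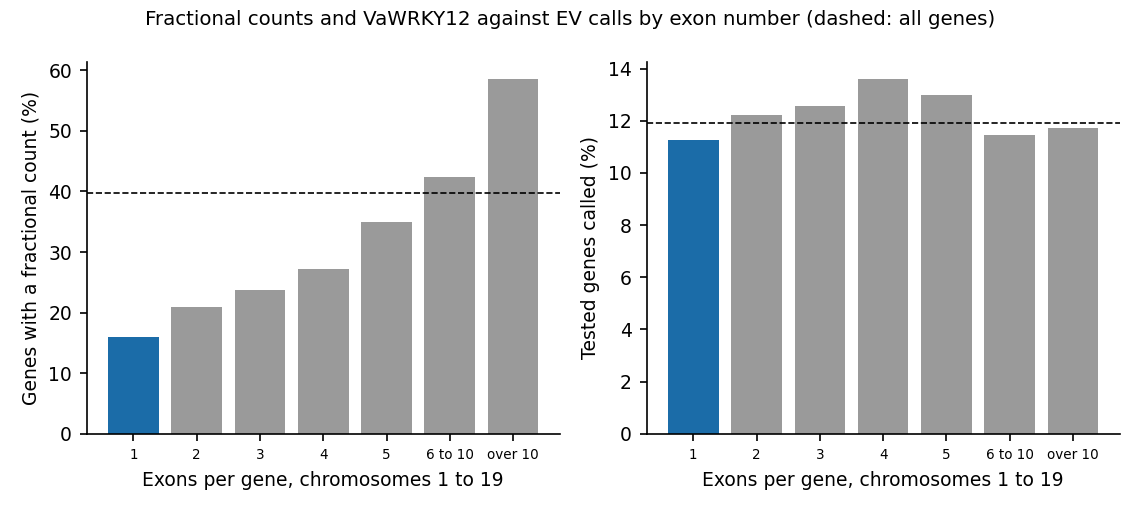
Share of genes with a fractional count in any library (left) and share of tested genes called between VaWRKY12 and EV (right), in percent, by exon number on chromosomes 1 to 19. Intronless genes are in blue and the dashed lines give all genes (39.8% and 11.9%). The left bars climb from 16.03% at 1 exon to 58.5% at over 10, while those on the right stay between 11.2% and 13.6%.

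The intronless genes lay on all 19 chromosomes, 228 on the plus and 190 on the minus strand. They made up 1.75% of the placed genes of chromosome 8 and 3.79% of those of chromosome 16, the lowest and highest shares. None lay inside an intron of another gene of the table, and neither did any of the genes with introns. The median distance to the nearest gene of the table was 3608 bases, against 2474 bases for genes with introns. In 19 places 2 or 3 intronless genes followed one another with no other gene of the table between them, 43 genes in all, and in 15 of these places all were on 1 strand.

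With VaWRKY12, 21 intronless genes rose and 24 fell relative to EV (edgeR quasi-likelihood test, Benjamini-Hochberg adjusted p under 0.05 over all 16317 genes tested). These are 5.25% and 6% of the 400 tested, close to the background of 5.76% and 6.16% among all tested genes. Together 45 were called, or 11.2%, against 11.9% of all genes tested. Genes with introns, weighted to the same level and coding length, were higher in 6.37% and lower in 5.30%. The higher genes numbered 11, 9 and 8 when EV replicates 1, 2 and 3 in turn were left out, and 11 when VaWRKY12 replicate 1 was. The weighted genes with introns also fell, to 3.01%, 3.10% and 3.54% higher without EV replicates 1, 2 and 3. Without VaWRKY12 replicate 1 they were at 3.95%. The lower genes numbered 14 without EV replicate 2 and 16 to 28 without any other single library. In those fits the weighted genes with introns were lower in 2.84% and in 3.20% to 4.98%. Without VaWRKY12 replicate 3, the library that stood apart, 20 were higher and 28 lower.

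The median log2 fold change of the called intronless genes was 1.28 among the risen and -1.34 among the fallen. It was 1.10 and -1.15 among called genes of exactly 2 exons and 0.99 and -0.87 among all called genes, whose level is higher. Calls with a change of at least 1 on the log2 scale numbered 17 risen and 16 fallen, or 33 of the 400 tested (8.25%), against 5.39% of all genes tested. Genes with introns weighted to the same level and length passed this rule in 4.70% as higher and 3.57% as lower, close to the intronless share. Over all 400 tested genes the median log2 fold change was 0.02, against 0.01 over all tested genes. The groups did not overlap in CPM for 103 of the 400 (25.8%), against 32.1% of all tested genes and 29.5% of the weighted genes with introns.

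Replicates of intronless genes were more scattered. The median biological coefficient of variation was 0.192, against 0.132 over all tested genes and 0.182 in genes with introns weighted to their level and length. The median size of the log2 fold change in either direction was 0.27, against 0.19 over all tested genes and 0.27 in the weighted genes. Both measures in the intronless genes therefore lay nearer the weighted than the unweighted values. For the coefficient of variation this is partly built in, because its estimate for each gene is drawn towards genes of similar level. In the lowest of 10 classes of level 11 of 123 intronless genes were called (8.94%), against 11.4% of genes with introns. Among the 10 intronless genes in the highest class 4 were called, 1 higher and 3 lower, against 13.1% of genes with introns.

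The 18 intronless genes that were not tested had mean counts of 5.17 to 11.3 reads per library. In 4 of them all VaWRKY12 libraries lay above all EV libraries, and in 1 they lay below. Over all tested genes these shares were 15.6% and 16.5%. Of the 400 that were tested, 15 reached the count limit of the filter in the 3 libraries of one group and in none of the other, so they had to differ between groups to enter, and 10 of these were called, as were 124 of the 159 genes with introns that entered in this way. A further 325 reached it in all 6 libraries, and 30 of these were called (9.23%), against 11.3% of genes with introns.

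**Figure D3:**
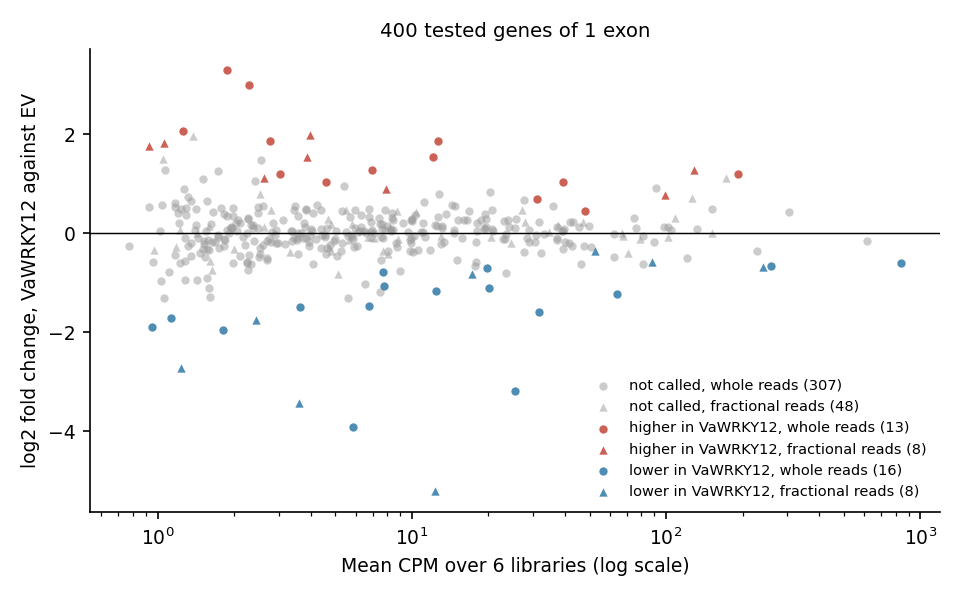
Mean CPM over 6 libraries (log scale) against log2 fold change between VaWRKY12 and EV for the 400 tested intronless genes, in red where higher, blue where lower and grey where not called. Circles have whole reads and triangles fractional reads. The 21 higher and 24 lower genes are spread over the range of levels, and the lowest point is at -5.22.

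The share called was larger among intronless genes with fractional counts than among those with whole counts in these libraries. Of 64 tested with fractions, 8 were higher and 8 lower (25.0%), and of 336 with whole reads, 13 were higher and 16 lower (8.63%), beside 11.9% of all genes tested. Genes with introns that had fractional counts, weighted to the level and length of the 64 (15 classes), were called in 10.6%. Those with whole counts, weighted in the same way to the 336, were called in 12.03%. Level differed between the sets, with a median of 12.6 RPKM in the 64 and 7.49 RPKM in the 336. With single libraries left out, 8 to 16 of the genes with fractions were called (11.9% to 24.2%), and 15 to 32 of those with whole reads (4.46% to 9.22%). In those fits genes with introns, weighted to all tested intronless genes, were higher in 3.01% to 6.28% and lower in 2.84% to 4.98%. Their share by kind of count is not given for those fits. The count of 16 fell to 8 without EV replicate 1, 2 or 3, to 10 without VaWRKY12 replicate 1 and to 9 without VaWRKY12 replicate 2. This difference was noticed in the data and was given no test. Called genes that had to differ between groups to enter the test fall in both sets. Among those with fractions they are GSVIVT01012932001, GSVIVT01013929001, GSVIVT01020290001 and GSVIVT01028960001. Close genes with fractions may also share reads, so the 16 called may not all be separate observations.

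Where the higher group averaged 50 reads or more and the groups stayed apart, the top rise was that of GSVIVT01013226001, at chr2:6548464-6548826 (minus strand). It had read counts of 7, 3 and 5 under EV against 102, 29 and 22 under VaWRKY12, all whole. The log2 fold change was 2.997 with a standard error of 0.525 (edgeR adjusted p = 0.01004). All VaWRKY12 libraries were above the highest EV library, and VaWRKY12 replicate 1 was the highest. The gene reached the count limit of the filter in VaWRKY12 libraries only, so it could enter the test only with a difference. Its count in EV replicate 2 was at the 3 reads taken as the floor.

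GSVIVT01024838001, of 402 bases, at chr6:6521141-6521542 (minus strand), stood at 6.61, 3.01 and 6.86 CPM under EV against 20.5, 16.1 and 22.8 CPM under VaWRKY12. Its log2 fold change was 1.86 with a standard error of 0.2898 (edgeR adjusted p = 0.00647). GSVIVT01037910001, at chr3:6406266-6406946 (minus strand), went from an EV mean of 75.5 ± 18.8 CPM to a VaWRKY12 mean of 182 ± 30.5 CPM (SD, n = 3), with a log2 fold change of 1.27 (edgeR adjusted p = 0.00645). The latter had fractional counts. Both were called without each library in turn, as was GSVIVT01013226001.

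The other 5 of the 8 largest rises did not keep their call throughout. GSVIVT01022892001, at chr12:18228118-18230199 (plus strand), had read counts of 14, 14 and 8 under EV against 102, 35 and 24 under VaWRKY12, and a log2 fold change of 1.86 (edgeR adjusted p = 0.022). Its adjusted p was 0.0597 to 0.0812 without EV replicate 1, 2 or 3 or VaWRKY12 replicate 1. GSVIVT01014291001, at chr19:2368390-2369052 (plus strand), stood at 9.08, 5.09 and 4.46 CPM under EV against 19.2, 10.8 and 24.3 CPM under VaWRKY12, with a log2 fold change of 1.54 (edgeR adjusted p = 0.0271). Its adjusted p was 0.0508 to 0.0940 without EV replicate 2 or 3 or VaWRKY12 replicate 1 or 3. The remaining 3, GSVIVT01013913001, GSVIVT01000212001 and GSVIVT01000214001, each lie close to another called intronless gene and are described with those.

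The largest fall among the 400 tested intronless genes was in GSVIVT01012936001, of 612 bases, at chr17:13836304-13836915 (plus strand). It stood at 34.7, 19.02 and 17.9 CPM under EV against 0.324, 1.48 and 0.224 CPM under VaWRKY12. Its mean fell from an EV mean of 23.9 ± 9.398 CPM to a VaWRKY12 mean of 0.677 ± 0.7005 CPM (SD, n = 3), which is a fitted log2 fold change of -5.22 with a standard error of 0.526 (edgeR adjusted p = 0.00204). Every VaWRKY12 library was under every EV library, and it was called without each library in turn. VaWRKY12 replicate 3 had 2.5 reads, below the 3 reads taken as the floor, so the size of the fall is uncertain.

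GSVIVT01011282001, at chr13:10494163-10494798 (minus strand), had read counts of 82, 169 and 77 under EV against 2, 18 and 3 under VaWRKY12. The log2 fold change was -3.92 with a standard error of 0.6704 (edgeR adjusted p = 0.00912), and the counts in VaWRKY12 replicates 1 and 3 were at or below the 3 reads taken as the floor. GSVIVT01009658001, at chr18:10250572-10252002 (plus strand), stood at 46.2, 55.2 and 35.3 CPM under EV against 2.78, 9.43 and 3.24 CPM under VaWRKY12. Its log2 fold change was -3.19 with a standard error of 0.411 (edgeR adjusted p = 0.00356). In both genes VaWRKY12 replicate 2 was the highest of its group and still lay under all EV libraries, and both had whole reads.

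Smaller falls were found in 4 further genes with whole reads. GSVIVT01020229001, at chr1:8824136-8826187 (minus strand), went from an EV mean of 89.6 ± 20.9 CPM to a VaWRKY12 mean of 38.3 ± 7.602 CPM (SD, n = 3), which is a fitted log2 fold change of -1.22 (edgeR adjusted p = 0.00704). GSVIVT01023712001, at chr11:9855633-9856433 (minus strand), stood at 14.01, 8.01 and 7.89 CPM under EV against 3.62, 4.24 and 2.91 CPM under VaWRKY12, a log2 fold change of -1.47 (edgeR adjusted p = 0.0148). These were called without each library in turn. GSVIVT01010552001, at chr16:16717905-16718516 (minus strand), stood at 4.64, 6.22 and 5.26 CPM under EV against 2.2, 2.12 and 1.34 CPM under VaWRKY12, with an edgeR adjusted p of 0.0116, and 0.0501 without EV replicate 2. GSVIVT01021662001, at chr10:8904492-8907026 (plus strand), stood at 33.2, 71.5 and 37.8 CPM under EV against 15.3, 23.2 and 8.49 CPM under VaWRKY12, with an edgeR adjusted p of 0.0332. Its adjusted p was 0.0585 to 0.0948 without EV replicate 2 or 3 or VaWRKY12 replicate 1, and EV replicate 2 was the highest library.

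**Figure D4:**
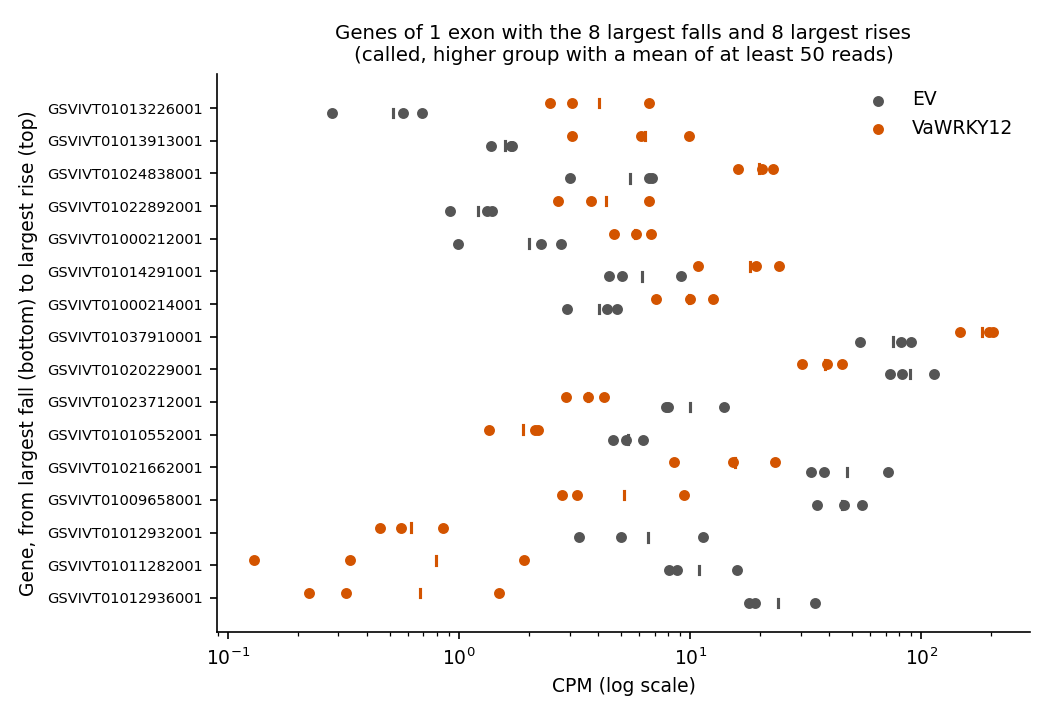
CPM per library (log scale) for the 8 intronless genes with the largest falls (lower rows) and the 8 with the largest rises (upper rows), among called genes whose higher group averaged 50 reads or more. Each point is a library, in grey for EV and orange for VaWRKY12, and the short bars are group means. The orange and grey points of a gene do not overlap in any row, which the choice of genes fixed.

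The most abundant intronless gene per length, GSVIVT01009919001, did not pass the test. It is 201 bases long, at chr18:12377667-12377867 (plus strand), had a mean of 3060 RPKM, and stood at 659, 588 and 697 CPM under EV against 483, 583 and 688 CPM under VaWRKY12 (log2 fold change -0.15, edgeR adjusted p = 0.5604). The next, GSVIVT01018598001, of 597 bases, at chr16:12517794-12518390 (minus strand), had a mean of 1407 RPKM and took the most reads of any fallen intronless gene. It stood at 1017, 1142 and 887 CPM under EV against 611, 743 and 646 CPM under VaWRKY12, a log2 fold change of -0.61 with a standard error of 0.127 (edgeR adjusted p = 0.0196). Its groups did not overlap, but the adjusted p was 0.0567 to 0.0741 without EV replicate 1 or 2 or VaWRKY12 replicate 1.

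Among the 5 highest by level were also GSVIVT01031242001 (687 RPKM) and GSVIVT01025397001 (490 RPKM), at chr14:914929-915120 (plus strand) and at chr6:1094444-1095061 (plus strand). Their log2 fold changes were 0.08 and 0.43, with edgeR adjusted p-values of 0.761 and 0.351, and their groups overlapped. Another of these was GSVIVT01022194001, of 345 bases, at chr7:17344656-17345000 (minus strand), the most abundant risen one. It stood at 136, 106 and 107 CPM under EV against 233, 233 and 334 CPM under VaWRKY12, and its mean of 116 ± 16.8 CPM under EV compared with 267 ± 58.5 CPM under VaWRKY12 (SD, n = 3, edgeR adjusted p = 0.00467). VaWRKY12 replicate 3 was the highest library, and the gene was called without each library in turn.

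Among the abundant fallen genes, GSVIVT01015754001, at chr3:16956480-16957403 (plus strand), stood at 289, 362 and 303 CPM under EV against 192, 224 and 184 CPM under VaWRKY12 (log2 fold change -0.67, edgeR adjusted p = 0.0108). GSVIVT01010672001, at chr16:15291250-15292230 (minus strand), stood at 310, 294 and 290 CPM under EV against 196, 198 and 162 CPM under VaWRKY12 (log2 fold change -0.69, edgeR adjusted p = 0.00521) and had fractional counts. In both, each VaWRKY12 library lay below each EV library, and both were called without each library in turn.

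Of the 45 called intronless genes, 7 had another called one within 250 kb, and in each case it had changed in the same direction. The 7 fall into 3 places, singled out after their values were seen, and no matching share for genes with introns is given here. On chromosome 7, 3 intronless genes followed one another on the plus strand with gaps of 13544 and 11080 bases and no other gene of the table between them, and all 3 rose. GSVIVT01000210001, of 2493 bases, at chr7:16109278-16111770 (plus strand), had read counts of 5, 3 and 2 under EV against 51, 33 and 31 under VaWRKY12 (log2 fold change 3.29, SE 0.353, edgeR adjusted p = 0.00232). GSVIVT01000212001, of 2520 bases and the longest risen gene, from 16125314 to 16127833, had read counts of 10, 23.5 and 24 under EV against 90.2, 63.5 and 42 under VaWRKY12 (log2 fold change 1.54, edgeR adjusted p = 0.0276). GSVIVT01000214001, of 285 bases, from 16138913 to 16139197, had read counts of 49, 31 and 38 under EV against 110, 94 and 112 under VaWRKY12 (log2 fold change 1.28, edgeR adjusted p = 0.0229). In each the VaWRKY12 libraries lay above all EV libraries in CPM, and GSVIVT01000210001 and GSVIVT01000214001 had whole reads. GSVIVT01000210001 passed the count filter through VaWRKY12 libraries only, so its p-value comes from a gene that had to differ to be tested. Its counts in EV replicates 2 and 3 were at or below the 3 reads taken as the floor.

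The call of GSVIVT01000210001 held without each library in turn. That of GSVIVT01000212001 was lost without EV replicate 1 or 2 or VaWRKY12 replicate 1 or 2 (edgeR adjusted p 0.0543 to 0.0865). That of GSVIVT01000214001 was lost without EV replicate 2 or 3 or VaWRKY12 replicate 2 (edgeR adjusted p 0.0639 to 0.0729).

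On chromosome 17, GSVIVT01012932001, the longest intronless gene, and GSVIVT01012936001 lay 63262 bases apart on the plus strand with no gene of the table between them, and both fell. GSVIVT01012932001 had read counts of 50.8, 121 and 29 under EV against 7, 7.67 and 5.17 under VaWRKY12 (log2 fold change -3.44, SE 0.553, edgeR adjusted p = 0.00718). Both had fractional counts, so part of their reads may be shared with other gene models or with each other. Both were called without each library in turn, but GSVIVT01012932001 passed the count filter through EV libraries only and had to differ to be tested.

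On chromosome 16, 4 intronless genes on the plus strand lay within 250 kb, 3 of them of 834 bases and 1 of 828 bases, all with fractional counts. GSVIVT01013913001, at chr16:6676172-6677005 (plus strand), had read counts of 17, 18 and 12 under EV against 95.3, 29 and 87.5 under VaWRKY12 (log2 fold change 1.99, edgeR adjusted p = 0.0214). GSVIVT01013929001, from 6903437 to 6904264, had read counts of 4, 3 and 6.5 under EV against 16.3, 15.5 and 20.3 under VaWRKY12 (log2 fold change 1.83, edgeR adjusted p = 0.0473). Between them, GSVIVT01013923001, from 6847616 to 6848449, had read counts of 7.17, 2 and 7 under EV against 27, 11.5 and 31.6 under VaWRKY12 and missed the threshold (log2 fold change 1.96, edgeR adjusted p = 0.0654). GSVIVT01013924001, from 6870574 to 6871407, had read counts of 0.67, 3.5 and 2.5 under EV against 23.3, 9.33 and 22 under VaWRKY12 and was too low to be tested. The other 3 genes of the table between the first and the last, which have introns, were also called higher. In all 4 the VaWRKY12 libraries lay above the EV libraries in CPM, on counts that may partly be the same reads. Both GSVIVT01013929001 and GSVIVT01013923001 passed the count filter through VaWRKY12 libraries only and had to differ to be tested. In EV replicate 2 both had counts at or below the 3 reads taken as the floor.

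The calls of this group were not stable. That of GSVIVT01013913001 was lost without EV replicate 1, 2 or 3 or VaWRKY12 replicate 1 (edgeR adjusted p 0.0507 to 0.0767). That of GSVIVT01013929001 was lost without any EV replicate or VaWRKY12 replicate 2 or 3 (edgeR adjusted p 0.0699 to 0.159). It was also lost with DESeq2 (adjusted p = 0.0570) and is not called in the authors' deposited table (false discovery rate 0.0581), and both calls were lost with limma-voom (adjusted p = 0.0543 and 0.0690).

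Close intronless genes of equal coding length all had fractional counts. Among 159 pairs within 250 kb on 1 chromosome, 8 pairs, made of 10 genes, had the same coding length. All 8 were on 1 strand, and in all 8 both genes had fractions of reads, against 9 of the 151 pairs of unequal length (5.96%). Pairs that share a gene are not independent, and no test was made. Besides the chromosome 16 genes they include 3 genes of 2238 bases on chromosome 9, GSVIVT01017134001, GSVIVT01017142001 and GSVIVT01017143001, the first from 4487070 to 4489307 and the last from 4552298 to 4554535. Their EV means were 9.24, 13.3 and 34.4 CPM and their VaWRKY12 means 8.39, 12.8 and 34.96 CPM, and none passed the test (edgeR adjusted p 0.8596, 0.9005 and 0.942). They also include a pair of 129 bases on chromosome 9, neither of them called, and a pair of 441 bases on chromosome 7.

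The members of the chromosome 7 pair lay 53356 bases apart on the plus strand and differed in their calls. GSVIVT01000114001, from 15369779 to 15370219, stood at 161, 147 and 147 CPM under EV against 127, 134 and 197 CPM under VaWRKY12 (log2 fold change 0.01, edgeR adjusted p = 0.983). GSVIVT01000121001, from 15423575 to 15424015, stood at 81.5, 67.9 and 69.5 CPM under EV against 104, 117 and 154 CPM under VaWRKY12 (log2 fold change 0.78, edgeR adjusted p = 0.0157), and was among the 3 most abundant risen genes. The groups overlapped in the first and not in the second. The difference between the members was not tested, and the call of GSVIVT01000121001 was lost without EV replicate 2 or 3 (edgeR adjusted p 0.0580 and 0.0612).

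**Figure D5:**
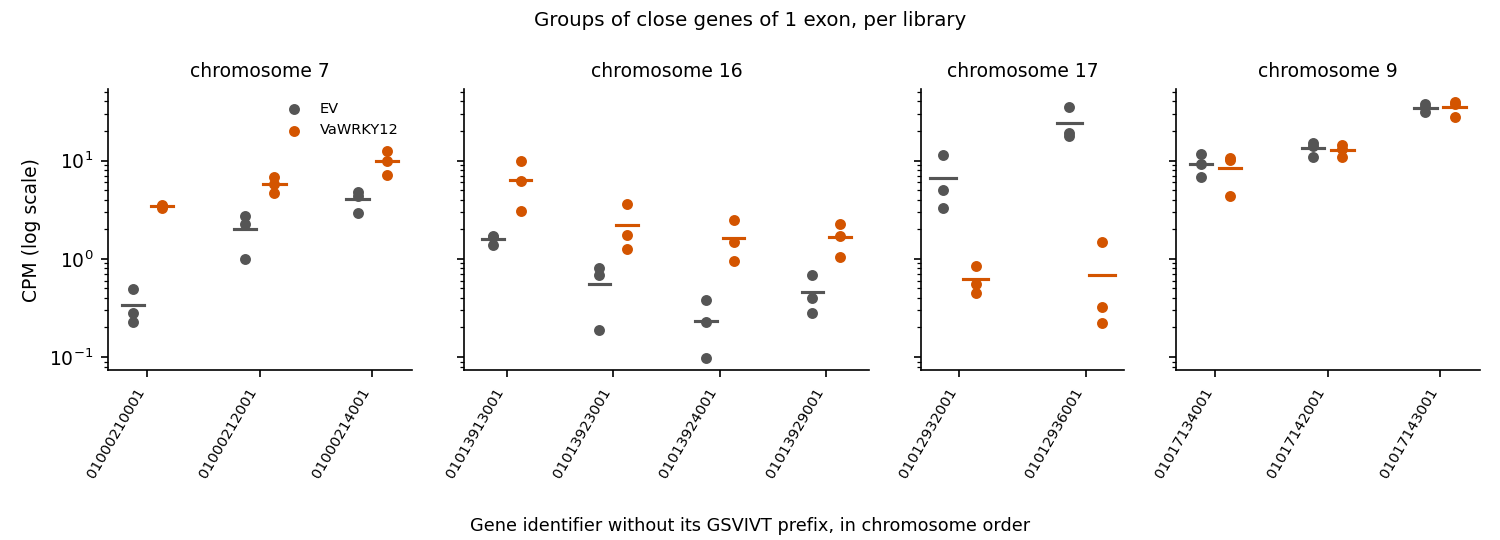
CPM per library (log scale) in 4 groups of close intronless genes, on chromosomes 7, 16, 17 and 9, chosen after their values were seen. Points are libraries, grey for EV and orange for VaWRKY12, and bars are group means. The orange points lie above the grey in each gene on chromosomes 7 and 16, below them on chromosome 17, and among them on chromosome 9.

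Around the called intronless genes, the nearest gene of the table had changed in the same direction for 5 of 45, in the opposite direction for 0, and was not called or not tested for 40. Beside this, 11.9% of all tested genes were called, 5.76% higher and 6.16% lower. The 5 include GSVIVT01000212001 and GSVIVT01012932001. Their nearest genes were the called intronless genes GSVIVT01000214001 and GSVIVT01012936001, so these cases repeat the close genes described above. In 3 of the 45 the nearest gene lay under 1000 bases away, and none of these 3 was called. For GSVIVT01011282001 it lay 72 bases away on the opposite strand and had a log2 fold change of 0.32. The sources used here do not state whether counting used strand, so reads from overlapping transcripts of opposite strands cannot be told apart.

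The authors' deposited table calls 22 of the 418 higher and 22 lower where its false discovery rate is below 0.05, beside 11.6% of all its genes called. Of these 44 calls, 41 were made in the same direction here, 3 were made in the authors' deposited table only, and 4 were made here only.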

How the data were processed

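The deposited table holds 6 RNA-seq libraries with 1 row per gene. Per the file headers, the authors deposited read counts, RPKM, a log2 fold change and log2 CPM, a test score, p-values and false discovery rates. The deposited read columns are taken to be estimated counts, which the authors made with a step that left fractions of a read, per the file headers and values. They were rounded to whole reads for the tests. The deposited RPKM values were reproduced from the counts and coding lengths. The submitters' processing notes name Trimmomatic, HISAT2 2.0.5 and edgeR with no roles, and give no counter, genome build, annotation or strand setting (not given in the sources used here). Coordinates are those of the table.

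Counts were filtered with filterByExpr (minimum count 10), scaled by TMM and tested over all genes with edgeR 4.0.16 in R 4.3.3 (glmQLFit and glmQLFTest, EV and VaWRKY12 only, no covariate), with Benjamini-Hochberg adjustment and a threshold of 0.05. The fit was tested on simulated data. A depth of 8795632 to 14966502 reads puts 3 reads at 0.200 to 0.341 CPM. Genes with introns were weighted to the level and length classes of the intronless genes as a description. Members, lists and tests were chosen with earlier results of these data known. Named are the 8 largest called rises and falls with non-overlapping groups and 50 reads or more on average in the higher group, the 5 highest in RPKM, the 3 most abundant called ones in each direction by CPM, and the longest and shortest. Genes described for their position were added after their values were seen. Gene families could not be matched because the identifiers come without names, and no sequence is shown. Replicate numbers are shared by the groups, but no description says that they pair libraries, so they were not taken as pairs. Deviations of same-numbered libraries correlated at -0.06, 0.33 and 0.17, which does not settle whether they are paired. Alternatives were other scalings, filters and matching classes, DESeq2 1.42.0, limma-voom (limma 3.58.1), whole-read genes, a replicate block, and leaving out each library.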

Additional observations from a re-analysis of the deposited data

How the results depend on the processing

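The counts of 21 higher and 24 lower intronless genes were 21 and 23 with RLE scaling, 21 and 22 with library totals alone, 22 and 31 with DESeq2, 18 and 24 with limma-voom and 24 and 24 with no filter. With the replicate number as a block they were 27 and 29. The higher count was 11 with a mean of at least 50 reads (223 of the genes tested), 13 with whole-read genes refitted, and 13 with whole-read genes in the fit over all genes, an alternative chosen after seeing the data. These 3 settings hold fewer genes by construction. Without single libraries the higher count was 8 to 20 and the lower 14 to 28, the weighted percentages of genes with introns were 3.01% to 6.28% higher and 2.84% to 4.98% lower, the median log2 fold change was -0.0415 to 0.0277, the share with fractions 14.4% to 15.6%, and the mean of the per-library median levels 6.95 to 7.30 RPKM. With all 6 libraries that mean was 7.07 RPKM, and over the tested genes alone it was 7.75 RPKM. The share with fractions could only stay or fall without a library, since a fraction in any library counts. Of the 21 higher genes, 6 were called without each library in turn, and of the 24 lower genes, 13. No such count is given here for genes with introns. Their weighted percentages also fell without single libraries, from 6.37% higher and 5.30% lower with all 6. No call took the opposite direction in any of these fits. Among named genes that were not called, GSVIVT01031242001 changed sign when VaWRKY12 replicate 3 was left out (log2 fold changes without single libraries ran from -0.0877 to 0.173). GSVIVT01025058001 did so when EV replicate 1 (-0.0489) or VaWRKY12 replicate 1 (-0.277) was left out, with 0.307 as its highest value. The cause of these differences was not tested. Low counts limit the set, since 13 to 50 of the 418 genes had under 10 reads in a library.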
